A study of Mus musculus with 9 samples.

Results

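The comparison set the early against the middle embryonic olfactory bulb of the mouse, from the days when the bulb emerges from the forebrain to the days when its first neurons differentiate. The early block was the arrays of embryonic day 11 (E11), E12 and E13 and the middle block those of E14, E15 and E16, so that 6 of the 9 arrays of the series were used. Arrays were assigned by their age alone. All were from CD1 mice, an outbred strain, with no transgene or treatment, and each held RNA of dissected bulbs, which went through 2 rounds of amplification and was read on an Affymetrix mouse genome array. No age had a second array. The 3 ages of a block stood in for replicates, so that change within a block counted as error, and p-values measured the scatter of these 6 arrays. Because the tissue was measured in bulk, fewer cells of a type and less RNA per cell cannot be told apart.

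The bulb arises at the front of the telencephalon, where dividing radial glia line the ventricle and produce neurons. Its projection neurons, the mitral and tufted cells, are born first and send axons to the cortex, whereas most of its interneurons, which use GABA, arrive later from other parts of the forebrain. Axons of sensory neurons from the nose reach the bulb with olfactory ensheathing cells, glia that wrap them, and the meninges, blood vessels and macrophages of the brain develop around and inside it over the same period.

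Of 18193 genes with a probe set of their own, 10657 were tested: those that reached a log2 level of 5 on 2 or more of the 6. Among them, 211 passed through the middle arrays alone and 84 through the early ones alone, and these had to differ. The median level of all probe sets was between 4.08 and 4.23 on these arrays. Xist and Y-linked RNA marked the E11, E12 and E15 samples as female and the E13, E14 and E16 samples as male. The difference between 3' and 5' probe sets, which grows with RNA degradation and short amplification products, was between 1.48 and 1.68 log2 units for actin in the early block and between 1.62 and 1.82 in the middle one. For Gapdh it was between 1.55 and 1.77 early and between 1.90 and 2.12 later, so that every middle array was above every early one. This sign of RNA quality moved with the blocks, and its part in the results below was not tested. Markers of skeletal muscle (1 of 18 on the array) and of surface ectoderm (1 of 17) mostly did not pass the filter. The ectoderm marker that passed read 6.60, 6.33 and 3.90 early and 3.94, 2.83 and 4.01 later. It passed through the early arrays alone and had to be lower later. Of 14 markers of the eye and diencephalon on the array, 3 passed, and all 3 had a lower middle mean. What part the dissection took in this was not tested.

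No gene separated the blocks past the threshold. The test of the middle against the early mean (limma, Benjamini-Hochberg adjusted p under 0.05) called 0 genes higher and 0 lower, 0% of those tested in each direction, and the smallest adjusted p was 0.0783. At an unadjusted p under 0.05, 1524 genes were higher and 1172 lower. With all 9 arrays in 1 fit of 3 blocks, 445 genes were higher and 254 lower. For a single gene, an exact permutation test of 3 arrays against 3 could not go below p = 0.1.

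On the same 6 arrays, a straight line on age (limma, the same threshold) called 1988 genes that rose (18.7%) and 1243 that fell (11.7%). The counts of each gene list below are to be read against these shares. In what follows, "rose" and "fell" refer to this slope and "not called" to its absence. Each level is a log2 value, and each difference is the middle mean minus the early mean in log2 units, with the standard error of the block fit. With each array centred on its median, which moved the median difference of all genes by -0.104, 1653 genes rose and 1755 fell, so that rises made up 48.5% of the called genes in place of 61.5%. The call held in all 6 fits that left out 1 array for 873 of the rising genes (8.19% of those tested) and 477 of the falling ones (4.48%). Without E15, 1268 rose and 743 fell, and without E11, 614 fell. All 3 middle arrays were above all 3 early ones for 1039 of the rising genes and below them for 933 of the falling ones, against 1386 (13.0%) and 1725 (16.2%) of all genes tested.

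Fewer genes moved between E13 and E14, where the blocks meet, than in the intervals on either side. Between E12 and E13, 764 genes were at least 2-fold higher on the later array and 262 lower, and between E14 and E15 these counts were 563 and 159. Between E13 and E14 they were 232 and 124, and between E15 and E16 they were lower still, at 108 and 90. Among the rising genes, 887 (44.6%) had their largest step up from E12 to E13, 453 (22.8%) from E14 to E15 and 131 (6.59%) from E13 to E14. Over all genes tested these shares were 26.1%, 18.5% and 12.1%, there for the largest step in either direction. Among the falling genes, 430 (34.6%) had their largest step down from E11 to E12. Of all genes tested, 31.1% had their largest step in either direction in that interval, which is not the same measure. Without E13 the block test called 1244 genes higher and 739 lower in the middle block, and without E14 it called 123 and 19. The sex of the sample changed from E12 to E13 and again from E14 to E15 and E15 to E16, but not from E13 to E14. With sex in the fit of the slope, 1233 genes rose and 611 fell. Its part in the single steps was not tested.

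**Figure D1:**
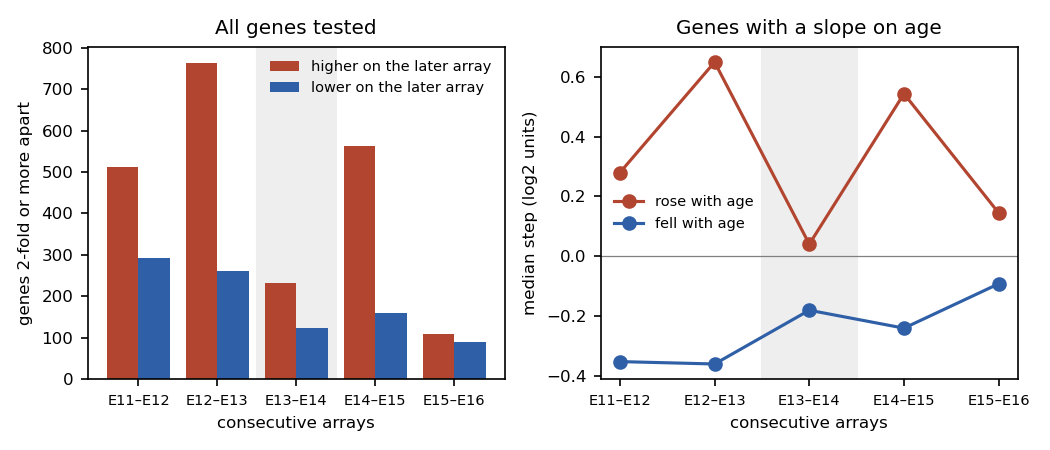
Left, number of the 10657 genes tested that were at least 2-fold higher or lower on the later of 2 consecutive arrays; right, median step in log2 units of the genes that rose (1988) or fell (1243) with age. The grey band marks the step from E13 to E14, where the blocks meet and 232 genes were higher and 124 lower, against 764 and 262 from E12 to E13.

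The share of a gene's change that was reached on the E13 and the E14 array placed the groups of genes in time. It was taken between the mean of E11 and E12 and the mean of E15 and E16, for genes at least 2-fold apart between these pairs (1692 higher and 741 lower in the later pair). The median higher gene was at 59.8% of its change at E13 and at 61.2% at E14, and the median lower gene at 55.4% and 66.8%. Genes of axons and the neuronal cytoskeleton were at a median of 82.9% at E13 (12 genes), neuronal ion channels at 72.6% (14), mitral and tufted cell genes at 68.4% (12) and synaptic genes at 66.4% (24). Genes of the GABAergic lineage were at 40.5% (11), and astrocyte genes at 25.6% (13), but with quartiles of 2.2% and 84.6%: 5 of these 13 had passed the middle of their change at E13 and 6 had not by E14. Genes of vessels were at 1.5% (10) and genes of the meninges at -7.7% (20), so that the median gene of these lists made its change after E13. At E14 the medians of these lists lay closer together. They were 72.1% for axon genes and 67.4% for ion channels, both lower than at E13. Mitral and tufted cell genes were at 69.8% and synaptic genes at 71.2%. Those of the GABAergic lineage, vessels, astrocytes and meninges were at 60.3%, 52.4%, 45.9% and 41.2%. These shares describe single arrays and were not tested.

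**Figure D2:**
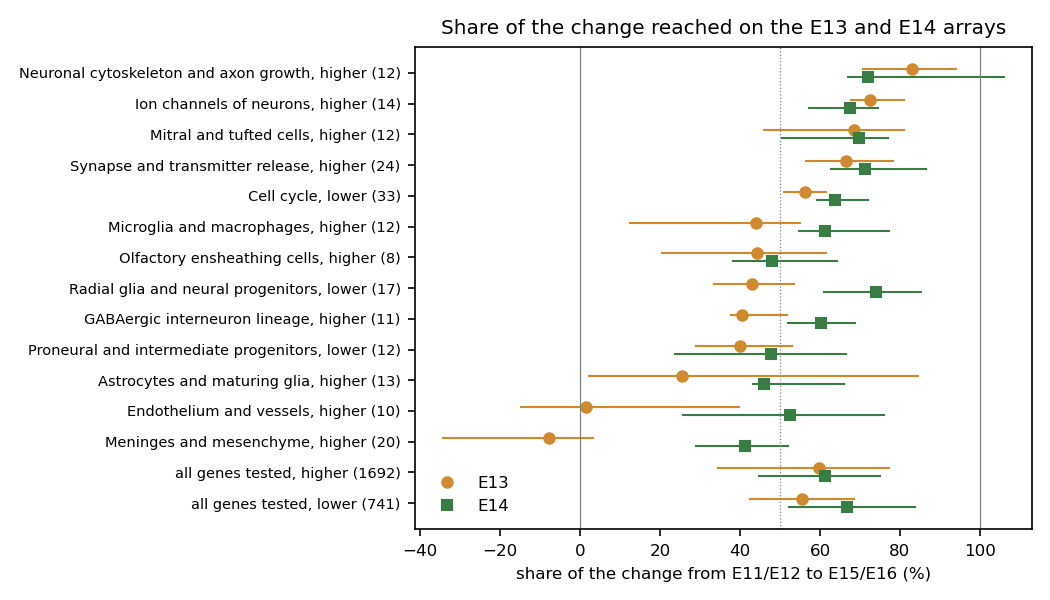
Share in percent of the change from the E11 and E12 mean to the E15 and E16 mean that was reached on the E13 and the E14 array, for the genes of each list that changed at least 2-fold in the direction named (number in brackets); circles (E13) and squares (E14) are medians and lines quartiles over genes. The median axon gene was at 82.9% at E13 and the median gene of the meninges at -7.7%.

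**Figure D3:**
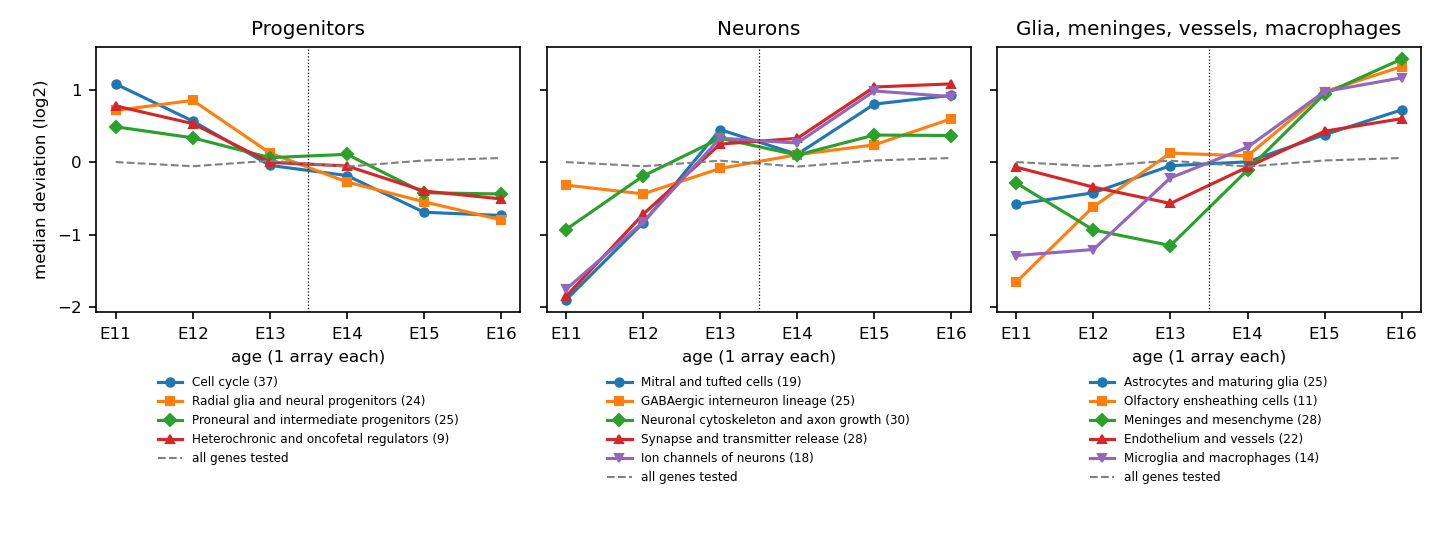
Course of each gene list over the 6 ages, as the median over its tested members of the deviation from a gene's own mean, in log2 units, with the number of members in brackets and a dotted line between the blocks. The cell cycle list was highest at E11 and lowest at E16.

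Cell cycle genes fell almost as a whole list. Of 37 tested, 34 fell, 0 rose and 3 (Mcm4, Ccne2 and Ccnd2) were not called, of which Mcm4 passed the test without E16 (limma adjusted p = 0.0305). The median difference of the list was -1.13 against 0.01 over all genes tested, and 32 of the 34 calls held without each array. Ube2c, which tags mitotic cyclins for degradation, read 11.56, 11.08 and 10.40 on the early arrays and 10.09, 9.37 and 9.11 on the middle ones, a difference of -1.49 ± 0.36. It was lower on each array than on the one before. Aurka, a spindle kinase, went from 9.88 at E11 to 7.39 at E16, and Mcm3, a subunit of the replicative helicase, from 11.61 to 9.47. Plk1, a kinase of mitotic entry, differed by -1.38 ± 0.38 with no overlap of the blocks. Mki67, the proliferation antigen, read 13.29, 12.81 and 12.31 and then 12.16, 11.82 and 11.86, a difference of -0.85 ± 0.25. Of the D-type cyclins, which drive G1, Ccnd1 read 11.71, 11.72 and 9.97 and then 10.35, 9.37 and 9.29 and fell (-1.46 ± 0.53), with E14 above E13, while Ccnd2 differed by -0.15 ± 0.17 and was not called.

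Promoters of mitotic and replication genes often hold a CCAAT box, bound by NF-Y, and a cell cycle homology region (CHR), through which a repressor complex silences them outside the cell cycle. Of the 34 falling cell cycle genes, 28 had promoter windows in the RefSeq table (GRCm38.p6). The 250 bases before the start were searched on both strands for CCAAT, whose reverse complement is ATTGG, and for the CHR letters TTTGAA, whose reverse complement is TTCAAA, or TTTAAA, which is its own. Of their 30 windows, 24 (80.0%) held a CCAAT match, 13 (43.3%) a CHR match and 12 (40.0%) both, against 33.8%, 25.2% and 8.78% of all 32851 windows in the table. The windows of 3 genes with large falls among those that held both are printed to show how such matches are arranged, 5' to 3', with matches in capitals:
Ube2c, chr2:164769679-164769928, + strand: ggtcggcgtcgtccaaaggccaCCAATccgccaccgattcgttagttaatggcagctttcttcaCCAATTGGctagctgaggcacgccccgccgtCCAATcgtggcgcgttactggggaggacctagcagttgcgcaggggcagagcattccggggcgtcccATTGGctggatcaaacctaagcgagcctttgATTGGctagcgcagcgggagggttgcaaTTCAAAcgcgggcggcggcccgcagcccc
Plk1, chr7:122159185-122159434, + strand: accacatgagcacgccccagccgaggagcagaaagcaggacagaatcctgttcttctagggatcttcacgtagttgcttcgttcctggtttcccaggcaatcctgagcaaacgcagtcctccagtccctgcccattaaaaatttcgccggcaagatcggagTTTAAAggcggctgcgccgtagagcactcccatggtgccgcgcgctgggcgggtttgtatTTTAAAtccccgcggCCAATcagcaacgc
Mcm2, chr6:88898781-88899030, - strand: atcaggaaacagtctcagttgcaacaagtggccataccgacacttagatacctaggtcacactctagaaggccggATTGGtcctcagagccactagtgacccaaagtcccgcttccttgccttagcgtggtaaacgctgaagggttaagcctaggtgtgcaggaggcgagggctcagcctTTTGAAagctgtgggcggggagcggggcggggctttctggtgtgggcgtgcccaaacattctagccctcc
Ube2c held 6 CCAAT matches, among them an overlapping pair in CCAATTGG, and 1 CHR match. Plk1 held 1 CCAAT and 2 CHR matches. Mcm2, another helicase subunit, held 1 of each. A match describes the letters and is not a measured binding site.

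Of 24 genes of radial glia and other progenitors, 17 fell and 3 rose, with a median difference of -1.20. Hmga2, a chromatin protein of young stem cells, read 12.87, 12.85 and 10.73 on the early arrays and 9.43, 7.30 and 6.32 on the middle ones, a 22.1-fold lower middle mean. The E11 and E12 arrays were alike, and the level was then lower on each array. Sox3, a transcription factor of progenitors, differed by -2.43 ± 0.44, and Nes, the intermediate filament of neural stem cells, by -1.21 ± 0.22, each with all middle arrays below all early ones. Pax6, which acts in radial glia, fell as well (-0.97 ± 0.21). Fabp7, a fatty acid-binding protein of radial glia, rose instead, from 14.46 at E11 to 15.35 at E16, as did Dbi, which binds acyl-CoA (0.59 ± 0.19). Sox2, a factor of neural stem cells, read 12.89, 13.05 and 12.26 and then 12.11, 11.74 and 12.00, and its slope passed the test (limma adjusted p = 0.0125) but not without E11 (adjusted p = 0.0519).

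Genes of embryonic timing lay in the same direction: of 9 tested, 5 fell, or 3 without E11, and 0 rose. Sall4, a pluripotency factor, read 7.51, 7.40 and 6.34 and then 5.20, 4.61 and 4.64. Igf2bp3, an RNA-binding protein of embryonic tissue, differed by -1.32 ± 0.34 with no overlap of the blocks. Stat4, a signal-dependent transcription factor, read 9.06, 7.84 and 4.88 and then 2.73, 2.36 and 2.40, so that it was above 5 at E11 and E12 alone. It passed the filter through these early arrays and had to be lower later.

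Among genes of neurogenesis, 10 of 25 fell and 2 rose, or 1 rose without E11 or E15. Neurog1, a proneural factor, read 8.43, 9.17 and 7.61 and then 7.22, 7.05 and 6.30, and Nhlh1, a factor of newly born neurons, 7.91, 8.31 and 6.96 and then 6.07, 4.44 and 4.41. Both were highest at E12. Neurog2, also proneural, read 11.51, 12.48 and 11.71 and then 12.05, 11.14 and 10.41 and was not called (-0.70 ± 0.44, adjusted p = 0.103), but its slope passed the test without E11 (adjusted p = 0.0149). Of 22 genes of the Notch pathway, which holds neighbouring progenitors back from differentiation, 10 fell (45.5%) and 5 rose (22.7%). Of all genes tested, 11.7% fell and 18.7% rose. Without E11, E15 or E16 2 Notch pathway genes rose, and without E12 3 rose. The ligand Dll1 fell from 10.84 at E11 to 8.55 at E16 and Dll3, an inhibitory family member, from 7.03 to 3.66, while the effector Hey2 rose from 6.75 to 10.90. Dll3, which is on the neurogenesis and the Notch list, was under 5 on every middle array. It passed the filter through the early arrays alone and had to be lower later.

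Of 612 transcription factors tested, 66 rose (10.8%, against 18.7% of all genes) and 87 fell (14.2%, against 11.7%). With arrays centred on their medians, 52 rose and 117 fell. Of the 612, 10 passed the filter through the early arrays alone and had to be lower later, and 11 through the middle arrays alone and had to be higher. The homeobox list had 12 falling and 3 rising members among 41, with 5 rising without E11. Of the 41, 3 passed through the early arrays alone and 1 through the middle arrays alone. Otx2, a factor of the forebrain and eye field, read 9.86, 8.36 and 7.40 and then 6.48, 5.60 and 5.52. Lhx2, which patterns cortex and eye, was 12.22, 12.23 and 11.50 and then 10.37, 10.63 and 9.47. Isl1, a factor of ventral forebrain neurons, was 10.14, 6.93 and 6.77 and then 5.74, 2.83 and 2.46. All 3 had every middle array below every early one. Among rising factors, Mef2c, a regulator of neuronal maturation, read 8.77, 8.47 and 10.50 and then 11.37, 12.13 and 12.33, and the nuclear receptors Nr2f1 and Nr2f2 differed by 1.50 ± 0.30 and 1.88 ± 0.47, each with no overlap of the blocks. Of 18 nuclear receptors, 8 rose and 3 fell, or 1 fell without E11, E12 or E15. Among the 18, 2 passed the filter through the middle arrays alone and had to be higher there.

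Genes of mitral and tufted cells rose in 14 of 19 cases and fell in 0, with a median difference of 1.23. Without E11, 8 rose and 1 fell, and without E15, 9 rose. Cdhr1, a protocadherin of mitral cells, read 6.39, 8.65 and 11.62 on the early arrays and 11.63, 13.67 and 13.74 on the middle ones, a 17.5-fold higher middle mean. Its E13 and E14 arrays were alike. Tbx21, a T-box factor of these neurons, read 2.40, 4.15 and 6.08 and then 4.91, 7.01 and 7.51, so that the blocks overlapped. Tbr1, a related factor of projection neurons, was between 11.48 and 12.11 on the 6 arrays and was not called (-0.15 ± 0.19). Eomes, another T-box factor of the lineage, rose from 11.34 at E11 to 12.51 at E16, a call that was lost without E11 (adjusted p = 0.107) or E15 (0.0618). Reln, an extracellular signal secreted by mitral cells, read 11.13, 12.25 and 13.61 and then 13.55, 14.02 and 13.83, and its call was lost without E11 (adjusted p = 0.0587).

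Of 25 genes of the GABAergic lineage, 9 rose and 4 fell. Th, the enzyme of dopamine synthesis in periglomerular cells, read 6.37, 6.19 and 7.30 and then 7.76, 8.72 and 9.11, and Synpr, a synaptic vesicle protein, 6.67, 7.98 and 10.31 and then 11.03, 12.02 and 12.66. Both rose without overlap of the blocks. Gad1, which makes GABA, read 10.76, 9.53 and 10.79 and then 11.68, 12.23 and 12.84, and its slope passed the test (adjusted p = 0.0111) but not without E16 (0.0658). Dlx2 and Sp8, factors of this lineage, were not called, with differences of 0.41 ± 0.16 and 0.29 ± 0.31, although the slope of Sp8 passed the test without E14 (adjusted p = 0.0429). Gsx2, a factor of ventral progenitors, fell from 8.10 at E11 to 4.65 at E16.

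**Figure D4:**
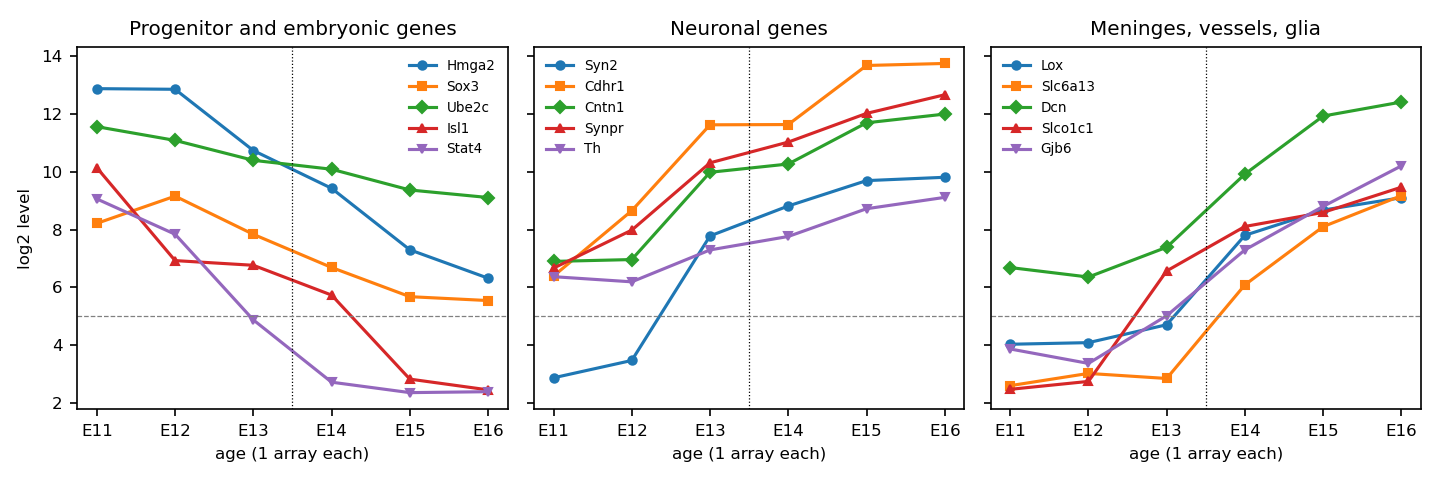
Log2 level of single genes on each of the 6 arrays against age; the dotted vertical line separates the blocks and the dashed horizontal line is the filter level of 5. Hmga2 went from 12.87 at E11 to 6.32 at E16, Syn2 from 3.48 at E12 to 7.78 at E13, and Lox from 4.71 at E13 to 7.80 at E14.

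Genes of the synapse rose in 24 of 28 cases and fell in 0, with a median difference of 1.57, and 18 of these calls held without each array. Syn2, a protein of synaptic vesicles, read 2.88, 3.48 and 7.78 and then 8.82, 9.69 and 9.81. Gria1, a subunit of AMPA receptors, read 3.98, 4.80 and 9.12 and then 9.74, 10.72 and 10.85. For both, the largest step was from E12 to E13 and the blocks did not overlap. Snap25, part of the release machinery, started higher, at 9.36, and was 12.13 at E16, and Gabrb2, a GABA receptor subunit, differed by 2.99 ± 0.63.

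Of 18 ion channel genes, 15 rose and 0 fell, or 8 rose without E11 and 10 without E15. Scn2a, a sodium channel, read 7.40, 8.20 and 9.59 and then 9.94, 10.91 and 10.87, and Kcnd2, a potassium channel, went from 6.76 at E11 to 10.17 at E16. Genes of the cytoskeleton and of axon growth rose in 19 of 30 cases and fell in 1, but 7 rose without E11, 10 without E15 and 12 without E14. Cntn1, an axonal adhesion molecule, was 6.90 and 6.96 at E11 and E12 and 9.98 at E13, and Nefl, a neurofilament, went from 6.23 at E12 to 8.35 at E13. Tubb3, a neuronal tubulin, was between 12.15 and 13.07 and was not called. Dcx, which binds microtubules in migrating neurons, rose from 12.96 at E11 to 13.91 at E16, a call lost without E11 (adjusted p = 0.209), E14 (0.0655) or E15 (0.0968).

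**Figure D5:**
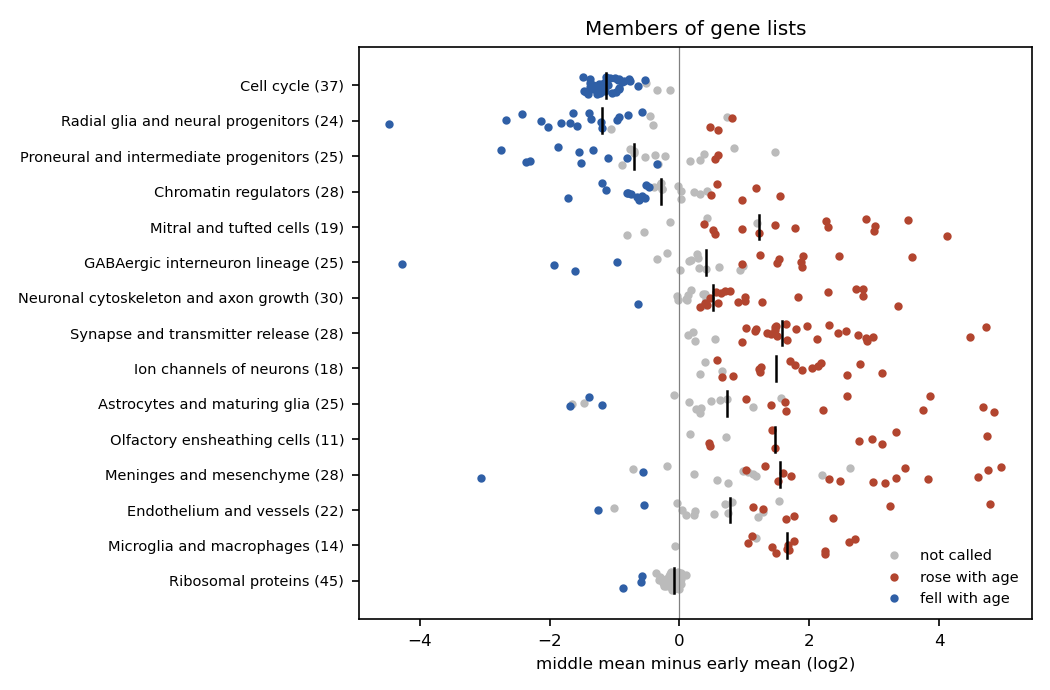
Difference of the middle and early means in log2 units for the tested members of each gene list, with 1 point a gene, coloured by its slope on age, and black bars for list medians. The median was -1.13 for cell cycle genes, 1.57 for synapse genes and -0.09 for ribosomal protein genes.

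Astrocyte and maturing glia genes rose in 10 of 25 cases and fell in 3, or 1 fell without E16, and 2 without E12 or E15. Gjb6, a connexin of astrocytes and meninges, read 3.87, 3.37 and 5.02 and then 7.30, 8.80 and 10.20. Tnc, a matrix protein of glia, went from 3.67 at E12 to 7.19 at E13. Gfap and Aqp4, markers of mature astrocytes, were at most 2.47 and 3.05 on the 6 arrays. Genes of olfactory ensheathing cells rose in 9 of 11 cases and fell in 0, but 3 of the 11, Prss56 among them, passed the filter through the middle arrays alone and had to be higher there. Npy, which these cells express early, read 3.31, 5.97 and 8.49 and then 9.31, 11.10 and 11.59, and Prss56, a protease, went from 3.62 at E11 to 8.32 at E16. The summed level of the list was between 15.09 and 15.67 (log2) in the early block and between 15.68 and 16.10 in the middle one. Fabp7, named above for radial glia, is also on this list and made up most of the sum. It read 14.46 at E11 and 15.35 at E16, so that the sum is not particular to ensheathing cells. Of 17 ensheathing cell genes on the array, S100b, Foxd3, Sostdc1, Cdh19, Scrg1 and Mia did not pass the filter. Foxd3, Sostdc1, Scrg1 and Mia were at most 3.05, 2.55, 3.54 and 2.24 on the 6 arrays, and S100b and Cdh19 at most 5.22 and 6.55. Omp and Cnga2, which mark mature sensory neurons of the nose, were at most 2.20 and 2.25 and were not tested. Of 21 genes of such neurons and the nasal epithelium on the array, 7 were tested. Among these, 3 rose (Gnal, Adcy3 and Ckmt1) and 3 fell, or 2 fell without E15 or E16.

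Signalling genes moved in both directions. Of 29 genes of FGF, BMP, Shh and retinoid signalling, 10 rose and 10 fell, and 2 of those that rose, Bmp6 and Aldh1a2, passed the filter through the middle arrays alone. The ligands Bmp5, Bmp6 and Bmp7 and the related Gdf10 rose. Bmp6 read 2.49, 2.53 and 4.40 and then 6.07, 7.71 and 8.16, and Gdf10 3.82, 3.30 and 7.19 and then 8.17, 9.81 and 10.07. The BMP receptor Bmpr1b fell from 8.31 at E11 to 4.98 at E16. Of the Shh pathway, the transcription factors Gli2 and Gli3 and the co-receptors Boc and Gas1 fell, with differences of -1.01 ± 0.19, -2.03 ± 0.37, -1.84 ± 0.37 and -1.59 ± 0.36, none with overlapping blocks. Crabp2, which carries retinoic acid to the nucleus, read 11.64, 11.55 and 8.72 and then 8.19, 6.81 and 7.74, while Aldh1a2, which makes retinoic acid, rose from 4.10 at E13 to 8.51 at E16. Of 21 Wnt pathway genes, 5 rose (23.8%, against 18.7% of all genes) and 7 fell (33.3%, against 11.7%). Without E11 or E15 4 fell. The receptor Fzd8 and the antagonists Sfrp1 and Sfrp2 fell, with Fzd8 at 9.98, 10.14 and 9.32 and then 8.65, 7.51 and 7.18. Another secreted antagonist, Frzb, rose and read 5.21, 4.11 and 7.63 and then 7.59, 9.22 and 9.49, with overlapping blocks, and the receptor Lgr5 rose as well (3.15 ± 0.81), though it passed the filter through the middle arrays alone.

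Of 28 chromatin regulators, 12 fell (42.9%, against 11.7% of all genes) and 5 rose (17.9%, near the 18.7% of all genes). Without E15 3 rose, and without E11 1 rose. Cbx2, a Polycomb protein, read 9.38, 8.96 and 8.11 and then 7.45, 7.22 and 6.61, and Ezh2, the Polycomb methyltransferase, differed by -0.81 ± 0.21. Smarca2, an ATPase of the BAF remodelling complex, rose from 9.32 at E11 to 10.93 at E16. Of 45 ribosomal protein genes, 0 rose and 3 fell, and their median difference was -0.09. With arrays centred on their medians, 11 of them fell.

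Embryonic globins were among the largest falls. Hbb-bh1, an embryonic beta-like globin, read 14.26, 11.90 and 7.33 and then 5.44, 2.89 and 3.57, and Hba-x, the embryonic alpha-like globin, 13.19, 11.40 and 8.51 and then 6.86, 3.81 and 2.62. Hbb-y, another embryonic globin, read 15.52, 15.51 and 15.01 and then 14.48, 11.37 and 5.48. The adult globin Hbb-b2 differed by -0.01 ± 0.25 and was not called. With values under 5 set to 5 its difference was 0.045, so that part of its values lay under the filter level, where a change may be hidden. The summed level of the 8 red cell genes tested, of which 5 fell, or 3 without E11, was between 15.13 and 16.34 (log2) in the early block and between 11.35 and 14.64 in the middle one. What part blood took in each dissection was not tested.

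Genes of the meninges and mesenchyme rose in 15 of 28 cases and fell in 2. Of the 28, 6, among them Slc6a13, Ogn, Col1a1 and Col6a1, passed the filter through the middle arrays alone and had to be higher there. Without E16 7 rose, without E12 or E15 10 rose and 1 fell, and without E11 1 fell. Dcn, a small matrix proteoglycan, read 6.69, 6.36 and 7.39 on the early arrays and 9.92, 11.93 and 12.41 on the middle ones, a 24.3-fold higher middle mean. Slc6a13, a GABA and taurine transporter of the leptomeninges, read 2.61, 3.03 and 2.85 and then 6.09, 8.10 and 9.17, and Ogn, another proteoglycan, 2.76, 2.47 and 2.77 and then 5.95, 7.23 and 9.07. All 3 were higher at E14 than on any early array and highest at E16. The summed level of the list was 15.38, 15.12 and 14.86 (log2) in the early block and 15.15, 15.74 and 16.27 in the middle one, so that the blocks overlapped. Of its members, Slc13a4, Twist1 and Twist2 did not pass the filter.

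Some genes of vessels and most of macrophages rose. Of 22 vessel genes, 7 rose (31.8%, against 18.7% of all genes) and 2 fell (9.09%, against 11.7%). Without E16 4 rose, and without E11 1 fell. Slco1c1, a thyroxine transporter of the blood-brain barrier, read 2.48, 2.75 and 6.57 and then 8.11, 8.59 and 9.47, and Cldn5, a tight junction protein, 8.13, 8.45 and 8.28 and then 9.49, 10.05 and 10.61. Pecam1 and Cdh5, which define endothelium, were at most 2.09 and 4.70 and were not tested. The summed level of the vessel list was between 12.34 and 12.95 (log2) early and between 12.82 and 13.53 later. Of 14 genes of microglia and macrophages, 12 rose and 0 fell, but 4 of the 14 passed the filter through the middle arrays alone and had to be higher there. Mrc1, a receptor of border macrophages, read 6.17, 5.53 and 6.05 and then 7.68, 8.82 and 9.37, and Cx3cr1, the fractalkine receptor, 6.30, 5.84 and 7.15 and then 7.54, 7.84 and 8.21. Their summed level was between 10.38 and 10.76 early and between 11.51 and 12.17 later, with no overlap, while Aif1, P2ry12 and Tmem119 were at most 3.93, 4.82 and 3.54.

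Few genes met the definition of a switch. Under 5 on all early arrays and 7 or more on all middle ones were 2 genes (0.0188% of those tested), Lox and Fcgrt, and 0 genes went the other way (0%). Lox, the enzyme that cross-links collagen and elastin, read 4.04, 4.09 and 4.71 and then 7.80, 8.68 and 9.10. Fcgrt, the neonatal Fc receptor, read 3.85, 3.45 and 4.93 and then 7.02, 8.39 and 8.90. With values under 5 set to 5, the middle means were at least 11.5-fold and 8.59-fold higher. Without E13, 59 genes were switched on and 2 off, without E14 35 and 2, and without E11 1 was switched off. At an upper level of 6 in place of 7, 17 genes were switched on and 0 off. They included the collagen genes Col1a1 and Col6a1, the transporter Slc6a13, the ligand Bmp6 and the connexin Gjb2, next to Adcy8, an adenylyl cyclase, and Rgs4, a regulator of G proteins.

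Lox, Col1a1, Gjb2 and the cathepsin Ctsk shared the smallest adjusted p of the block test (0.0783). These 4 genes were chosen after their values were seen. All 4 were under 5 on every early array, so that they passed the filter through the middle arrays alone and had to be higher there. Col1a1 read 4.18, 3.82 and 3.93 and then 6.45, 7.12 and 7.31, and Ctsk 3.46, 3.32 and 3.29 and then 5.95, 6.35 and 6.13. The slope of Ctsk was called, but not without E15 (adjusted p = 0.0503), and that of Col6a1 not without E16 (0.0704). All 4 were at least 2-fold higher at E14 than at E13, and the summed level of the meninges list went from 14.86 to 15.15 in that interval. Its part in these differences was not tested.

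Outside the lists, the largest positive differences among calls that held without each array were those of Gabrg1 (5.38 ± 1.32), a GABA receptor subunit, Sla (5.27 ± 0.88), an adaptor protein, and Cpne6 (5.04 ± 1.32), a calcium-binding protein. Sla read 4.31, 4.04 and 7.54 and then 10.45, 10.39 and 10.88, so that its 3 middle arrays were close together. Col25a1, a membrane collagen of neurons, had the largest such fall (-3.83 ± 0.68), from 10.48, 11.06 and 9.06 early to 7.51, 6.27 and 5.33 later. Gna14, a G protein subunit, read 6.20, 6.79 and 3.86 and then 2.36, 2.28 and 2.29. It passed the filter through the early arrays alone and had to be lower later.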

How the data were processed

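Total RNA of mouse olfactory bulbs was measured on 1 Affymetrix array per age, and 6 of 9 arrays were used. The deposited table gives 1 log2 value for each probe set and array. The submitters' processing notes name GCRMA, a method that models background from probe sequence and then scales arrays to one another. Its version is not given in the sources used here. That the values are log2 was judged from their range. No further scaling was applied. The platform annotation named a single gene for 34945 of 45101 probe sets, several genes for 932 and no gene for 9160, next to 64 controls. For each gene the probe set with the highest mean over the 6 arrays was taken, among those that reached log2 5 on 2 of them.

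The middle minus early difference was tested with limma 3.58.1 in R 4.3.3 (empirical Bayes with a variance trend, two-sided, Benjamini-Hochberg over 10657 genes), with 4 residual degrees of freedom. The slope per day on the same arrays was planned only as an alternative setting of the block test. The list counts and steps were planned on calls of the block test, and slope calls took their place. The fits were tried on simulated data with independent scatter around the mean of each gene. The simulated blocks held no drift with age, so that they cannot show how such drift affected the block counts. The members and gene lists were chosen with earlier results of these data known. Named genes were to be those with the largest differences past the block threshold. As none passed, the rule was applied to slope calls that held without each array. Further named genes, the timing measure, the alternatives of the slope and a correction of the homeobox name pattern were chosen after values were seen. Other alternatives were the filter, a floor, scaling, sex, the variance model, the probe set and left-out arrays. Precision is limited by the number of arrays. Promoter windows were 250 bases from a RefSeq table (GRCm38.p6).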

Additional observations from a re-analysis of the deposited data

How the results depend on the processing

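The block test called 0 genes in either direction with limma, and the counts higher and lower were 1 and 1 with no filter, 4 and 0 with the variance taken without its trend, 445 and 254 with 3 blocks of all 9 arrays and 1988 and 1243 for the slope in place of the block. Leaving out 1 array gave between 0 and 1244 higher and between 0 and 739 lower, with the highest counts without E13 and calls otherwise without E14 alone (123 and 19). Of the named genes, 89 were called without E13 and 23 without E14. The slope called 1233 and 611 rising and falling genes with sex in the fit, 541 and 105 without E11 and E12 and 277 and 112 without E11 and E16. Leaving out 1 array gave between 1268 and 2049 rising and between 614 and 1169 falling genes. The switched-on count was 17 at an upper level of 6 and 0 at 8, and between 2 and 59 without 1 array, where the switched-off count was between 0 and 2. For the settings that left out arrays, fewer samples entered the fit, and for the others the cause was not tested. With age as a covariate, the block term is the step beyond a straight line. No gene passed the adjusted threshold, 139 had an unadjusted p under 0.05, and the term had the opposite sign to the block difference for 40 named genes, in log2 units: Aurka 0.204, Bmp7 -0.149, Bmpr1b 0.609, Ccnd1 0.639, Ccnd2 0.025, Ccne2 0.343, Cdhr1 -1.379, Cntn1 -0.236, Cpne6 -0.636, Dbi -0.024, Dcx -0.388, Eomes -0.394, Fabp7 -0.219, Frzb -0.121, Gria1 -0.224, Gsx2 0.247, Hba-x 0.084, Hbb-b2 0.178, Hbb-y 2.227, Hey2 -0.654, Igf2bp3 0.081, Isl1 0.719, Kcnd2 -0.458, Mcm2 0.039, Mki67 0.102, Nefl -0.183, Neurog2 0.381, Npy -0.854, Nr2f2 -0.065, Plk1 0.169, Reln -0.603, Scn2a -0.16, Sfrp2 0.15, Snap25 -0.517, Sp8 -0.821, Synpr -0.375, Tbx21 -2.441, Tnc -0.19, Tubb3 -0.32 and Ube2c 0.114. Genes that were not called had differences that changed sign, over the fits without 1 array Hbb-b2 between -0.097 and 0.068, Tubb3 between -0.037 and 0.428, and otherwise Hbb-b2 0.009 without E11 and E16, Hbb-b2 0.045 with values under 5 set to 5, Ccne2 0.034, Hbb-b2 0.028, Sp8 -0.05 and Tubb3 -0.303 without E11 and E12. Their slopes per day did so too, without 1 array Hbb-b2 between -0.029 and 0, Tbr1 between -0.098 and 0.027, Tubb3 between -0.01 and 0.203, and otherwise Hbb-b2 0.001 with values under 5 set to 5, Ccne2 0.028, Mcm4 0.021 and Tubb3 -0.142 without E11 and E12. No paired analysis was possible because the labels give no replicate numbers. With 1 array an age, the scatter between animals of an age is unknown, and age, litter and dissection cannot be told apart. Levels near the array median may hold background, which limits the folds of dim genes.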

Other observations

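Probe sets with no single gene name, tested apart with the same slope, rose in 360 (11.6%) and fell in 372 (12%) of 3106 cases.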
